A study of Drosophila melanogaster with 3 samples.

Results

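The 35 genes described here encode the proteins that copy chromosomal DNA, and the data show at which of their promoters the histone-fold protein Chrac-16 was found in Drosophila melanogaster embryos. They were chosen by name and fall into 10 steps, from origin recognition through licensing, the MCM helicase and its activation to the sliding clamp, single-strand binding, flap removal, nucleotide supply, the topoisomerases and replication timing. They are 35 of 13945 protein-coding genes on the 6 chromosome arms (2L, 2R, 3L, 3R, 4 and X) of the dm6 build. All 35 were found in the Ensembl gene annotation, 3 of them (lat, CDC45L and RpA-70) through a synonym, as Orc3, Cdc45 and RPA1.

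Chrac-16 belongs to CHRAC, in which the ATPase Iswi slides nucleosomes along DNA, and is one of its small histone-fold proteins. The material was 1 group of 3 biological replicates of whole embryos of mixed sex, aged 0 to 24 h, from a transgenic Chrac-16-eGFP line with the tag at the C-terminus, precipitated with an anti-GFP antibody. There was no second condition, and whether untagged Chrac-16 was also present is not given in the sources used here. A moderate peak in most cells and a strong peak in few cells cannot be told apart in whole embryos.

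Replication starts when the origin recognition complex binds DNA and, with Cdc6 and the Cdt1 protein, loads the ring-shaped MCM helicase. Cdc45 and the GINS proteins then switch the helicase on, the clamp loader places the PCNA ring that holds the polymerases on DNA, and replication protein A coats the single strands. Early Drosophila embryos copy their genome in very fast cycles on a maternal supply of these proteins. In flies, transcription of many replication genes is known to depend on E2F with its partner Dp, and on the DREF protein, which binds the DNA replication-related element (DRE).

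The promoter sequences of 6 of the genes are shown first, because they carry the pattern in the motif results below: copies of the E2F or DRE letters in the promoter, both with and without a Chrac-16 peak. Each runs 5′ to 3′ on the strand of the gene, from 250 bases before the start through 50 bases from the start onward, in the RefSeq release 6 genome sequence (dm6). Capitals mark matches to DRE (TATCGATA) or to 1 of 4 forms of the E2F site (TTTCGCGC, TTTGGCGC, TTTCCCGC and TTTGCCGC), on either strand. The first 3 genes had a peak in the authors' optimal list. They are Cdc7 at chrX:6654291-6654590 (plus strand), Psf1 at chr3L:1247628-1247927 (minus strand) and Mcm2 at chr3R:8264720-8265019 (plus strand).
Cdc7: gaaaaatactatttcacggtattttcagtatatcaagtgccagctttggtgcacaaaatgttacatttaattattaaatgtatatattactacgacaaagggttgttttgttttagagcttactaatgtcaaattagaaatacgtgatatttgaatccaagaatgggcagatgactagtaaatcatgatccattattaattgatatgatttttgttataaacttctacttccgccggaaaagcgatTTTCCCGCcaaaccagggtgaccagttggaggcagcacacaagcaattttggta
Psf1: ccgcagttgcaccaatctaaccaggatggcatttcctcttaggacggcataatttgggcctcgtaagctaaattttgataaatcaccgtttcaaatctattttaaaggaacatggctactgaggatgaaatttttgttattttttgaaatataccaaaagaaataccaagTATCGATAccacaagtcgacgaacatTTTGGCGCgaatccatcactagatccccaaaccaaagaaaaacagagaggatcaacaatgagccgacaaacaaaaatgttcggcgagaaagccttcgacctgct
Mcm2: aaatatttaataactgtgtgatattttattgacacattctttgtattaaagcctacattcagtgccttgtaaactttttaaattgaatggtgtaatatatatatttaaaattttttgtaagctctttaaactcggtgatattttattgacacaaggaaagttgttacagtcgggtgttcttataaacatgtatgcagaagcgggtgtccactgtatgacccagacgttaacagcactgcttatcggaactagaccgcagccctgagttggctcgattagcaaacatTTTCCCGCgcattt

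The other 3 promoters, of genes with no Chrac-16 summit even in the pooled relaxed list, hold the same kinds of letters. They are RnrL at chr2L:10327894-10328193 (minus strand), Orc5 at chr2L:13829587-13829886 (plus strand) and Gnf1 at chr3R:4906372-4906671 (plus strand). Capitals again mark DRE and E2F matches.
RnrL: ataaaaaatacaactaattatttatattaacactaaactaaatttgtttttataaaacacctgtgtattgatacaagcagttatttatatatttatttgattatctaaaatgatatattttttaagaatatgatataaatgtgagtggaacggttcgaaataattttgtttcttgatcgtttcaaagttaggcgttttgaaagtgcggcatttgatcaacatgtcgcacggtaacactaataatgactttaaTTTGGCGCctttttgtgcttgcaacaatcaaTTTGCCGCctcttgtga
Orc5: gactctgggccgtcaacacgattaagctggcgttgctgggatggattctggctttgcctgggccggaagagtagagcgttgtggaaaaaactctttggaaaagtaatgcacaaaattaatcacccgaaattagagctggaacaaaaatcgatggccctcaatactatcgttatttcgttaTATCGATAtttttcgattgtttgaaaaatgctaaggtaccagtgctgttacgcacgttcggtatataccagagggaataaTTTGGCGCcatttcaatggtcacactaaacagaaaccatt
Gnf1: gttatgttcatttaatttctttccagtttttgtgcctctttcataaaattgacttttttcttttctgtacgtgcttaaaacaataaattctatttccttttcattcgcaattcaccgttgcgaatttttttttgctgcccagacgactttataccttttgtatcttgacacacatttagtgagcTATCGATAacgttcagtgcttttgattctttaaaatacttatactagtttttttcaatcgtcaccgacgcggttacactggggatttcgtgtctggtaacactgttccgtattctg

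The values come from peak lists. A gene was counted as having a promoter peak when a summit lay within 500 bp of any of its annotated transcript starts. The authors' optimal list, thresholded on reproducibility between replicates, held 4941 peaks, and the pooled relaxed list, called on all 3 replicates together, held 24641. The relaxed lists of replicates 1, 2 and 3 held 30000, 24619 and 29140 peaks. To compare the replicates at equal length, the 4941 peaks of highest signal in each were taken as its strongest set. The signal value of a peak is the authors' own and has no stated unit, so it was read within a list only. Peak lists give no read depth.

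Of the 35 replication genes, 13 (37.1%) had a promoter peak in the optimal list, against 22.5% of all protein-coding genes. These 13 genes were Orc1, lat, dup, geminin, Mcm2, dpa, Mcm5, Psf1, Cdc7, RpA-70, RnrS, Top1 and Rif1, at 12 sites, since Mcm2 and RpA-70 share 1. In the pooled relaxed list 26 members (74.3%) had a summit, against 49.7% of all genes. A further 13 genes, among them Cdc6, RfC38 and Top2, therefore had a peak only there. The remaining 9 had none in either list, namely Orc5, Orc6, Mcm3, PCNA, RfC3, RfC4, Gnf1, RPA2 and RnrL.

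The replicates gave the same picture one by one. In the strongest sets 34.3%, 34.3% and 37.1% of the members had a promoter peak in replicates 1, 2 and 3, a mean of 35.2% ± 1.65 (SD, n = 3). The corresponding mean over all protein-coding genes was 22.1% ± 0.268 (SD, n = 3). These SDs give the spread over the replicate lists for the same genes, not the uncertainty of a share of 35 genes. In all 3 strongest sets at once 10 members (28.6%) had a peak, against 17.5% of all genes. In all 3 relaxed lists 23 members (65.7%) did, against 37.8%. With the peak body required to contain a start, or with only the 2470 strongest optimal peaks, 7 members (20%) were counted, against 14.6% and 13.4% of all genes. No test was made of these differences, because the study holds a single condition and genes are not replicates.

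**Figure D1:**
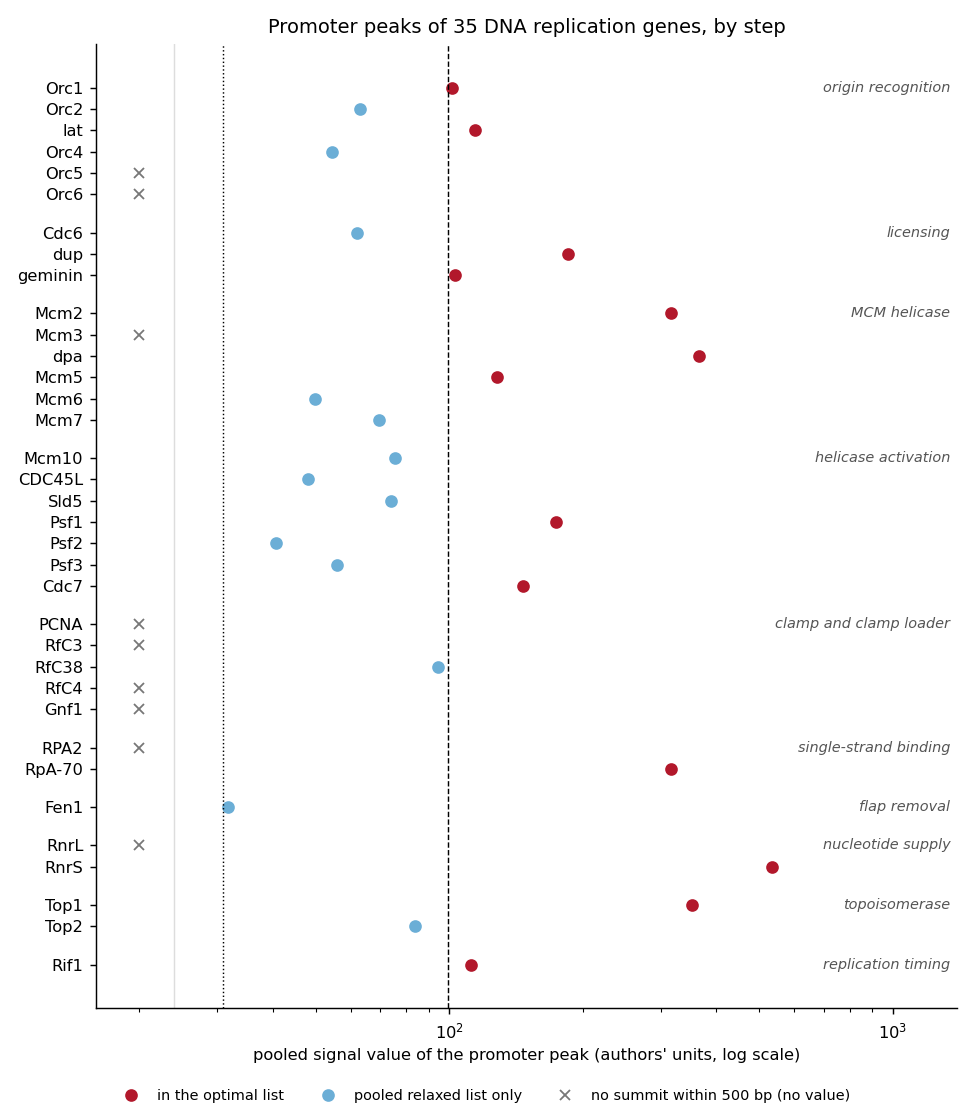
Signal value of the promoter peak of each of the 35 replication genes in the pooled relaxed list (log scale, authors' units), grouped by step. Red points are in the optimal list, blue points in the pooled relaxed list only, and crosses left of the grey line mark genes with no summit within 500 bp, which have no value. The dashed line is the weakest optimal signal, 99.6, and the dotted line the weakest pooled signal, 30.9. No red point stands among the 5 members placed in the clamp and clamp loader step.

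The signal of the members' peaks had no fixed order against that of other genes: it was lower in the optimal list and higher in the pooled one. The median optimal signal was 175 over the 13 members and 198 over the 3137 protein-coding genes with an optimal promoter peak. In the pooled relaxed list the medians were 98.0 over 26 members and 87.9 over 6934 genes. Across the members the signal spanned 101.5 at Orc1 to 535 at RnrS, which are rank 4824 and rank 295 of 4941. The plot of signal by step shows this spread. When optimal peaks had to overlap the strongest sets of only 2 replicates, the order of the medians turned without replicate 2 (251 for members, 223 for all genes) and without replicate 3 (251 and 224). It also turned with the 2470 strongest optimal peaks (317 and 290.3). In every other setting of the optimal list the members stayed lower. The medians were 146 against 191 with the nearest start only and 114 against 181 with the peak body containing a start. They were 112 against 184 with shared peaks left out.

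The threshold of the optimal list runs through the weaker members. Just inside it stood Orc1 with 101.5 and geminin with 103, and just outside it RfC38 with 94.5 (rank 5238 of the pooled list) and Top2 with 83.8 (rank 6028). On distance, the furthest summit still counted was that of RpA-70, 424 bp from its start, and the nearest not counted were 861 bp from Top2, 1056 bp from Sld5 and 1086 bp from Mcm3. The Mcm3 summit lay upstream of the gene.

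Origin recognition was covered at 2 of its 6 genes (33.3%) in the optimal list, close to the 22.5% of all genes. In the strongest set of every replicate 1 gene (16.7%) was counted, against 17.5% of all genes. With only the 2470 strongest optimal peaks 0 were counted, against 13.4% of all genes. The count stayed at 2 with the peak body containing a start (14.6% of all genes) and with shared peaks left out (8.53% of all genes). A pooled summit was found at 4 (66.7%), against 49.7% of all genes. Orc1 encodes the large ATPase subunit of the complex. Its summit lay 53 bp upstream of the start, in the peak at chr2R:7525561-7525976, with signals of 31.5, 23.2 and 41.6 in replicates 1, 2 and 3, and only replicate 3 had it in its strongest set. The lat gene encodes Orc3. Its peak at chr2R:13205162-13205577 had signals of 40.3, 39.7 and 39.7, the most even of the 12 sites, and lay 33 bp upstream of an internal start, over the 5′ UTR of an Orc3 transcript and a 3′ UTR of CG34315. The subunit genes Orc2 and Orc4 had pooled summits only, with signals of 63.0 and 54.4. Orc5 had no summit in any list, and Orc6 had 1 only in replicate 3, with a signal of 18.1.

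Licensing was covered at 2 of 3 genes in the optimal list, against 22.5% of all genes. All 3 had a pooled summit, against 49.7% of all genes. The dup gene encodes Cdt1, which brings the MCM ring to origins, and geminin encodes the inhibitor that binds it. The dup site at chr2R:15380509-15380924 had an optimal signal of 185, with 82.4, 37.6 and 71.3 in the peaks overlapping it in replicates 1, 2 and 3. Replicate 2 was the low one there, and its strongest summit for dup, with a signal of 60.5, lay 344 bp upstream. The summit was 103 bp from the nearest start of dup but 7 bp from a start of SRPK, a kinase of splicing factors, so the 2 genes cannot be told apart at this site. At geminin the signals were 30.8, 34.6 and 39.1, with the pooled summit 62 bp upstream of a start, in an intron of the gene at chr2R:6656255-6656670. Cdc6, an ATPase that works with the origin complex, had a pooled signal of 61.9 with the summit 323 bp downstream of its start, the furthest downstream of the 26 pooled summits.

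The MCM helicase had 3 of its 6 genes (50%) in the optimal list, against 22.5% of all genes. With the peak body required to contain a start, 1 gene (16.7%) was counted, against 14.6% of all genes. With peaks shared with another gene start left out, 0 were counted, against 8.53% of all genes. A pooled summit was found at 5 (83.3%), against 49.7% of all genes. Of the 6 genes, 3 (50%) were in the strongest set of every replicate, against 17.5% of all genes, and they were the 3 of the optimal list. The dpa gene encodes Mcm4. Its site at chr2R:7499947-7500067, 117 bp upstream of a start and over the 5′ UTR of another dpa transcript, had signals of 114, 148 and 102 in replicates 1, 2 and 3 and an optimal signal of 365. A start of didum, which encodes a myosin motor, lay 153 bp from the summit. The Mcm2 site at chr3R:8264835-8264981 had signals of 74.7, 118 and 113 and an optimal signal of 317. Replicate 1 was the low one of the 3 at Mcm2 and replicate 2 the high one at dpa.

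Mcm5 was the weakest of these 3 helicase genes, with signals of 34.3, 41.1 and 58.9 and an optimal signal of 128 at chr3R:10788097-10788512. Its summit lay 219 bp upstream of Mcm5 and 79 bp from a start of Art1, an arginine methyltransferase gene. Mcm6 and Mcm7 had pooled summits only, with signals of 49.8 and 69.6, located 13 bp and 42 bp upstream of their starts. Mcm3 had no summit within 500 bp in any of the lists.

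Helicase activation was covered at 2 of its 7 genes (28.6%) in the optimal list, near the 22.5% of all genes. With peaks shared with another gene start left out, it was covered at 0, against 8.53% of all genes. All 7 had a pooled summit, against 49.7% of all genes. Psf1 encodes a subunit of the 4-protein GINS complex. Its site at chr3L:1247702-1248117 had signals of 49.6, 60.1 and 71.7 and an optimal signal of 175, and lay 233 bp upstream of Psf1 but 93 bp from a start of Sac1, a phosphoinositide phosphatase gene, over the 5′ UTR of Sac1. Cdc7 encodes the kinase that phosphorylates the MCM ring. Its summit was the closest of all, 3 bp upstream of the start at chrX:6654330-6654745, with signals of 56.9, 36.3 and 47.5. The other GINS genes Sld5, Psf2 and Psf3, and Mcm10 and CDC45L, had pooled signals between 40.6 at Psf2 and 75.7 at Mcm10. For CDC45L replicate 1 had no summit, and for Psf3 replicate 2 had none.

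None of the 5 members placed in the clamp and clamp loader step had an optimal peak. They are the genes chosen by name for this step, so the count does not speak for clamp loader genes outside the 5. Other fork genes, including CG8142 with an optimal signal of 468, are in the further lists below. At 22.5% of all genes, 1 such gene in 5 would be near the background. A count of 0 among 5 is therefore not a result about these genes. In the pooled relaxed list only RfC38 had a summit, with a signal of 94.5 and replicate signals of 37.6, 26.7 and 30.2, and 4 of the 5 had none, against 49.7% of all genes with one. PCNA, the clamp itself, had a summit only in replicate 2 (20.02), Gnf1, the large loader subunit, only in replicate 2 (22.6), and RfC3 only in replicate 3 (12.3). RfC4 had none in any list.

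Behind the fork the coverage was uneven. RpA-70, the large subunit of replication protein A, had an optimal peak only through the site it shares with Mcm2, 424 bp upstream of its own start. RPA2, the middle subunit, had a summit only in replicate 1, with a signal of 13.01. Fen1, the nuclease that trims Okazaki fragment flaps, had a pooled signal of 31.8, close to the weakest of that list, and a summit only in replicate 3. Put together, the clamp, loader, single-strand binding and flap genes had 1 optimal peak among 8 (12.5%) and 3 pooled peaks (37.5%). Origin, licensing and helicase genes had 9 among 22 (40.9%) and 19 (86.4%), and all protein-coding genes 22.5% and 49.7%. In the strongest sets the shares were 16.7% ± 7.22 and 36.4% ± 4.55 (SD, n = 3 each), beside 22.1% ± 0.268 of all genes, and in the relaxed lists 45.8% ± 7.22 and 84.8% ± 5.25, beside 50.7% ± 3.21. The first group was thus near the share of all genes, and its low counts are not a result about these 8 genes. This split of the steps was made after their values had been seen, so it is a description.

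Of the topoisomerases, which relieve the twist ahead of and behind the fork, Top1 had an optimal peak and Top2 a pooled one. The Top1 site at chrX:15323316-15323492 had signals of 111, 129.6 and 112 and an optimal signal of 353. It lay in an intron of Top1, 195 bp upstream of an internal start. Within 100 bp of its summit the DNA was 60.7% guanine and cytosine, whereas the other 11 sites had 29.4% to 45.3%. The bases around the Top1 summit, chrX:15323321-15323471 on the plus strand, are shown because they held neither a DRE nor an E2F match and so carry no capitals.
Top1: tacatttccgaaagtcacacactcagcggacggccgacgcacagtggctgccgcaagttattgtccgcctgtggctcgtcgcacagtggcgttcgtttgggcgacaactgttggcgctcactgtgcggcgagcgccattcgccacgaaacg

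Nucleotide supply gave the widest contrast between partners. RnrS and RnrL encode the small and large subunits of ribonucleotide reductase, which makes deoxynucleotides. RnrS had the strongest peak of all members, at chr2R:11985432-11985748, with signals of 195, 164 and 172 in replicates 1, 2 and 3 and a summit 176 bp upstream of the start. RnrL had no summit within 500 bp in any list, and the nearest optimal summit was 7131 bp away.

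Rif1, which in flies delays the replication of repeated DNA in the early embryo, had signals of 28.8, 38.1 and 41.4 and an optimal signal of 112, 83 bp upstream of its start at chr2R:15869022-15869437. Replicate 1 was the low one and did not hold the site in its strongest set.

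To put the replicates on 1 scale, each signal was divided by the median of the strongest set of that replicate, which was 57.0, 57.9 and 58.2 in replicates 1, 2 and 3. RnrS was then at 3.07 ± 0.315, dpa at 2.10 ± 0.411, Top1 at 2.03 ± 0.177 and the Mcm2 and RpA-70 site at 1.77 ± 0.399 (SD, n = 3 each). These 4 sites were above the median in every replicate, and RnrS did not overlap any other site. The sites of dup and Psf1 lay around the median, at 1.11 ± 0.411 and 1.05 ± 0.181. Cdc7 (0.813 ± 0.186), Mcm5 (0.774 ± 0.212), lat (0.691 ± 0.0134), Rif1 (0.625 ± 0.107), geminin (0.603 ± 0.0665) and Orc1 (0.556 ± 0.157) had means below it. Apart from lat and geminin, whose ranges did not meet, each pair of these 6 sites overlapped in its replicate values. Over the 12 sites Spearman's rho between pairs of replicates was 0.734, 0.846 and 0.818, given as a description, because the sites were taken from a list thresholded on reproducibility.

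**Figure D2:**
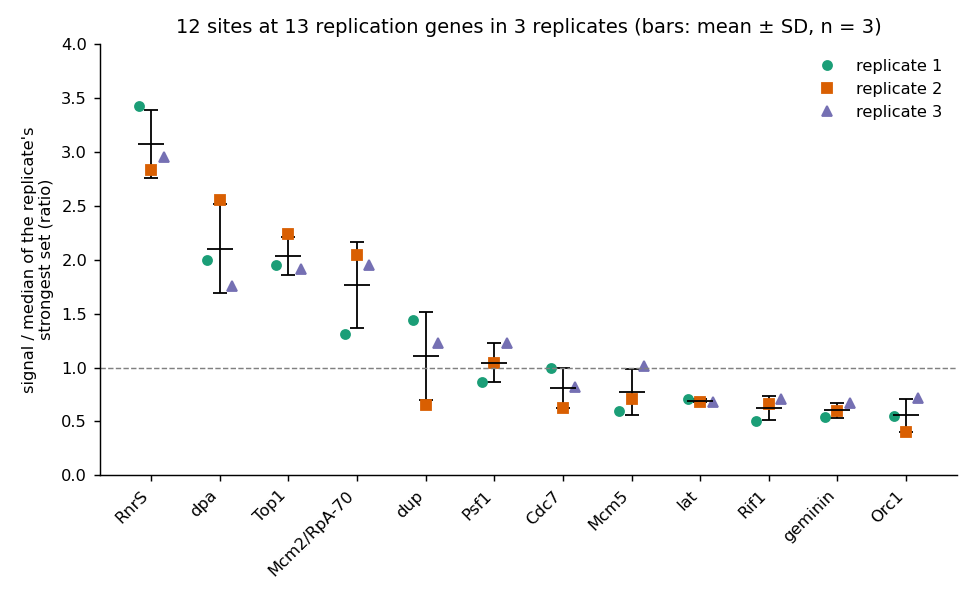
Signal of the 12 optimal sites at 13 replication genes in each replicate, as a ratio to the median of that replicate's strongest set, with the mean and SD (n = 3). The dashed line marks a ratio of 1. RnrS, dpa, Top1 and the Mcm2 and RpA-70 site lie above it in all 3 replicates.

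Each of the 13 genes had its optimal summit on the upstream side of its nearest start, as did 90.1% of all protein-coding genes with one. The median position was -103 bp for members and -136 bp for all genes, with negative values upstream. This order turned with the 2470 strongest optimal peaks (-176 bp for members, -144 bp for all genes), without replicate 2 (-146.5 and -140 bp) and without replicate 3 (-146.5 and -140.5 bp). Members ranged from -424 bp at RpA-70 to -3 bp at Cdc7. In the pooled relaxed list 23 of 26 were upstream, and the exceptions were Cdc6, Psf3 and Fen1.

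**Figure D3:**
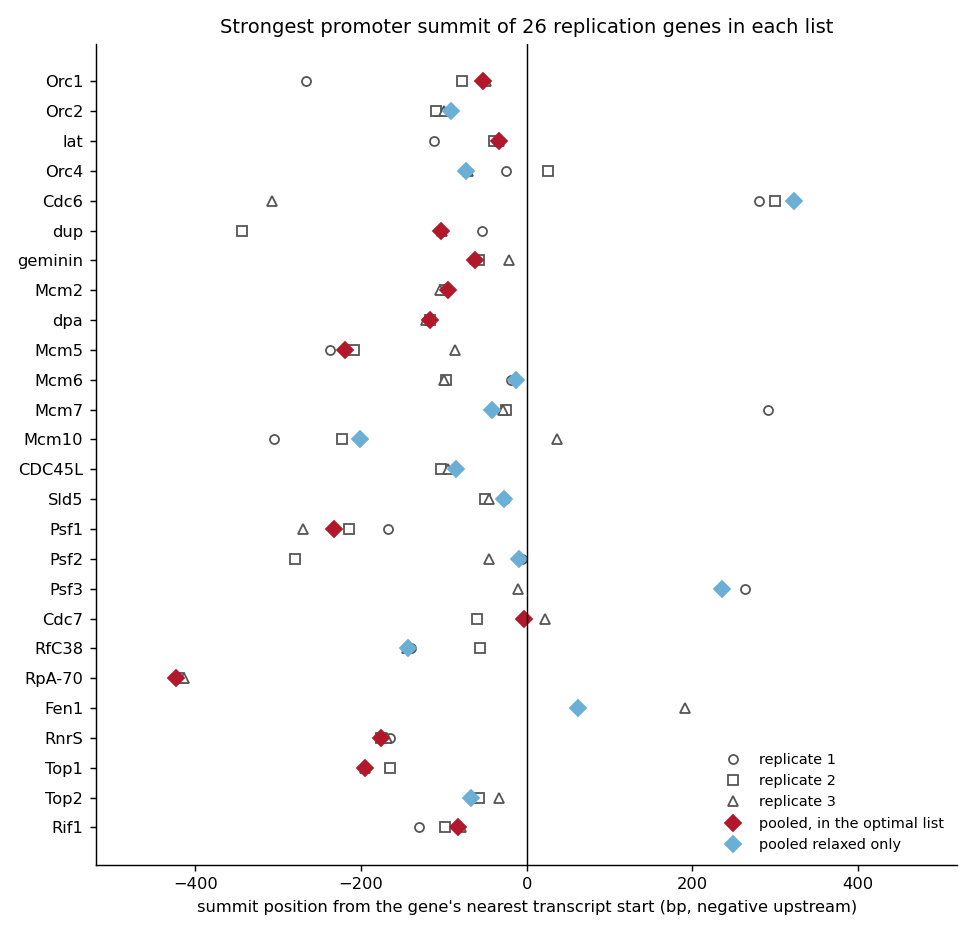
Position of the strongest promoter summit of the 26 replication genes with a pooled summit, in bp from the nearest transcript start of the gene (negative upstream). Diamonds are the pooled list, red where the peak is also in the optimal list, and open symbols are the 3 replicates. Red diamonds all lie left of 0, and the replicate summits of RnrS, dpa, Mcm2 and RpA-70 cluster tightly, whereas those of Mcm7, Mcm10 and Cdc6 are scattered.

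Many replication genes share their promoter region with a neighbour. A protein-coding gene on the other strand started within 1000 bp upstream of 22 of the 35 members (62.9%), compared with 36.2% of all protein-coding genes. Genes with such a divergent partner had an optimal promoter peak more often in general, at 40.9% against 12.1% of genes without one. Among the members the counts were 10 of 22 (45.5%) and 3 of 13 (23.1%). If each class of members had the share of all genes in that class, 10.6 members would have a peak, against the 13 observed and 7.87 at the share of all genes taken as a whole.

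Of the 13 members with an optimal peak, 8 had the start of another gene within 500 bp of the same summit, and for 4 of them (dup, Mcm5, Psf1 and RpA-70) that other start was the nearer one. Mcm2 and RpA-70 are themselves such a pair, with starts 519 bp apart on opposite strands. Starts of CG34231 and CG3226 lay 439 bp and 290 bp from the summits of RnrS and Cdc7, further than the start of the member. Orc1, lat, geminin, Top1 and Rif1 were the 5 (14.3% of members, against 8.53% of all genes) with no other start within 500 bp, and 4 of these 5 had a mean ratio below 0.7.

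**Figure D4:**
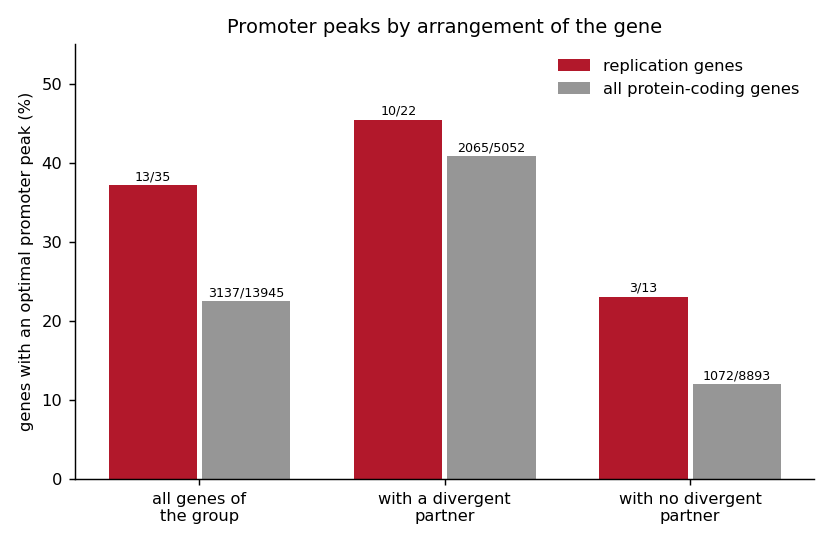
Percent of genes with an optimal promoter peak among the 35 replication genes (red) and all 13945 protein-coding genes (grey), in all, with a divergent partner within 1000 bp upstream, and without one. Numbers above the bars are genes with a peak over genes in the class. Both colours are higher with a partner, and the gap between the colours is 37.1% to 22.5% over all genes, 45.5% to 40.9% with a divergent partner and 23.1% to 12.1% without one.

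The promoter letters of the members were compared with those of all promoters, in the window of the 6 sequences above, on both strands, at 1 start per gene. The 8 motifs searched were DRE (TATCGATA), the BEAF-32 core (CGATA), E2F (the 4 forms above), the site of GAGA factor (GAGAG), the Zelda site (CAGGTAG), the Motif 1 core (GGTCACAC), the TATA box (TATAAA) and the E-box (CACGTG). Every DRE also holds CGATA on both strands, and E2F forms can overlap each other, as they do at lat. A match is a run of letters and not a bound site.

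E2F letters were found in 17 of the 35 promoters (48.6%) and in 6.58% of all promoters. At 15 of these 17 genes they lay between 60 bases before the start and 50 bases from it, a position at which 2.62% of all promoters had them. DRE letters were found in 9 members (25.7%) and 9.23% of all. At 4 of these 9 genes, all without an optimal peak, they lay between 60 bases before the start and 50 bases from it. In that position 6.05% of all promoters had them. The BEAF-32 core was in 21 of 35 against 47.5%, the Motif 1 core in 17.1% against 7.79%, TATA in 51.4% against 45.5% and GAGA in 17.1% against 30.2%. Zelda letters were in 0 of 35 against 1.69%, and the E-box in 1 of 35 against 586 of the 13945 promoters of all genes.

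**Figure D5:**
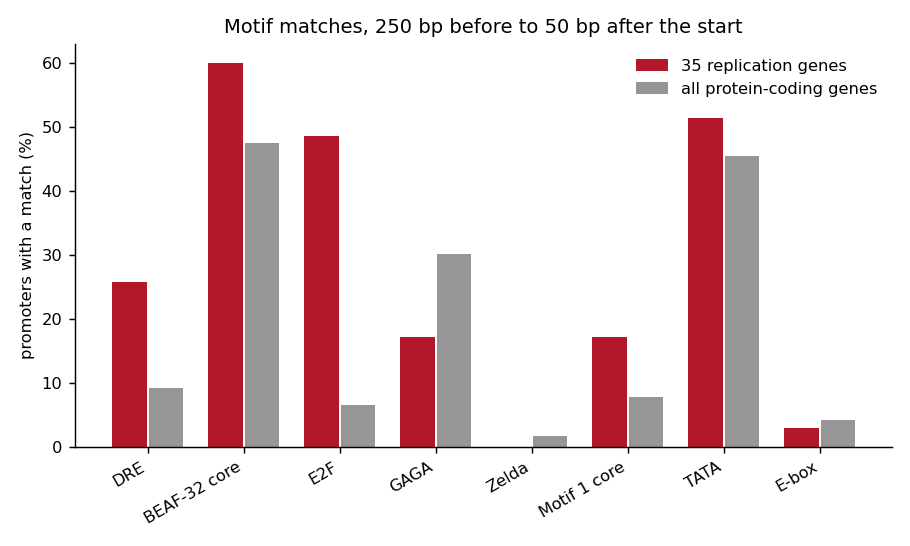
Percent of promoters with at least 1 match to each of 8 motifs, from 250 bp before to 50 bp after the start, in the 35 replication genes (red) and all 13945 protein-coding genes (grey). E2F shows the widest gap, 48.6% against 6.58%, followed on a ratio scale by DRE, 25.7% against 9.23%.

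E2F and DRE letters were also counted separately in members with and without an optimal Chrac-16 peak. E2F letters were in 8 of 13 promoters with an optimal peak and in 9 of 22 without, and among all genes in 7.01% and 6.45%. DRE letters were in 2 of 13 members with a peak, lat and Psf1, and in 7 of 22 without (Orc2, Orc5, Sld5, Psf3, PCNA, Gnf1 and Top2). Among all genes DRE was in 15.2% of promoters with a peak and in fewer, 811 of 10808, of those without, the opposite order. These are small counts and were not tested. For lat, dup, geminin, dpa and Top1 the window examined lies at another start than the one nearest the peak. With the window at the start nearest the summit, a choice made after the data were seen, E2F letters were in 9 of the 13 (dup and dpa gained, Top1 lost) and in 6.98% of all genes with a peak. DRE letters were then in 1 of the 13, Psf1, and in 14.7% of all genes with a peak.

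Around the summits themselves, within 100 bp, E2F letters were present at 5 of the 12 sites (41.7%) and at 3.17% of all 2174 promoter sites of the optimal list. They were at Cdc7, where the match covers the summit base and runs over the start, and at lat (6 bp from the summit), dpa (30 bp), Orc1 (56 bp) and dup (81 bp). DRE letters were at 0 of the 12 sites and at 7.91% of all sites, and the DRE of Psf1 printed above lay 153 bp from its summit. The BEAF-32 core was at 41.7% of the sites and at 41.1% of all.

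Other genes of the pathway were read from 5 further lists, 64 names of which 63 were matched to a gene. Of these 63, 22 (34.9%) had an optimal promoter peak and 52 (82.5%) a pooled one, against 22.5% and 49.7% of all genes. With peaks assigned to the nearest start only, 13 of the 63 (20.6%) had an optimal peak, against 16.2% of all genes. Among the replicative polymerases, absent from the 35, 5 of 11 had an optimal peak and 10 a pooled one. The strongest were PolD2, a subunit of polymerase delta, with a signal of 723 (rank 147) and replicate signals of 264, 239 and 222, the primase gene Prim1 with 185, and PolE4, a histone-fold subunit of polymerase epsilon, with 159.9. Only PolD2 of these 3 had no nearer start of another gene. Chrac-14, whose product pairs with Chrac-16 in CHRAC and also serves polymerase epsilon, had a pooled peak only, with a signal of 61.3 and with 24.4, 17.1 and 21.9 in the replicates.

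The other lists were small, and the share of all genes to set beside each count is 22.5%. Counts of 2 of 6 and of 7 of 21 are both 33.3%, and 1 of 4 is 25%. All of these shares lie close to 22.5%. Fork and Okazaki fragment factors had 7 of 21, led by Ctf4, which ties the helicase to polymerase alpha (489), CG8142 (468) and chif, the activating partner of Cdc7 (224). Chromatin assembly had 2 of 6, SuUR, which slows forks in heterochromatin (488), and Slbp, which binds histone messenger RNAs (109). Nucleotide metabolism had 1 of 4, dUTPase (261). The list of E2F, DREF and cell cycle regulators had 7 of 21, led by Dp, the partner of E2F (488), the checkpoint kinase gene mei-41 (397) and Rbf2, of the retinoblastoma family (357). At Ctf4, CG8142, SuUR, Slbp, dUTPase, mei-41 and Rbf2 the start of another gene was nearer to the summit.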

How the data were processed

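Per the listings deposited beside the peak lists, the authors called relaxed lists on dm6 for each replicate and for all 3 together, against a control alignment that is not analysed here. They derived the optimal list from these by the IDR procedure. Per the labels, sonicated fragments were 200 to 800 bp. The aligner and peak caller were not given in the sources used here. Deposited signal values ranked and described peaks within a list, the authors' summit offset gave positions, and the deposited −log10 q value entered no result.

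Summits were assigned to every gene with a transcript start within 500 bp (Ensembl release 115), and a gene took its strongest. Motifs were searched at the start most transcripts use or, in a tie, at the most upstream of these. The spread is the SD over 3 replicates, and no test was run. Depth is unknown, so a missing peak is not shown to be an absence.

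The members, steps, lists and motifs were chosen with earlier results of these data known. All members are named, with at most 3 genes of highest optimal signal per further list and the genes whose start or transcript shares a member summit. Chrac-14 was named after its value was seen. The dm3 lists were not used. The assignment and motif search were tested on simulated data (Python 3.11.15, numpy 2.4.6, scipy 1.17.1). Alternatives were other windows, nearest start, peak body, the stronger part of the list, replicates left out, upstream starts, shared promoters left out, another DRE form and other motif windows.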

Additional observations from a re-analysis of the deposited data

How the results depend on the processing

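Peak lists without depth limit what a missing peak can show, and 13 members are few. With the summit within 250 or 1000 bp of a start, or only the most upstream start, the members with an optimal peak were 12, 14 and 11, against 17.9%, 25.4% and 20.4% of all genes. Assigned to the nearest start only, 9 members remained (25.7% against 16.2%), the other replication genes fell from 22 to 13, the median member signal became 146 and the members in all 3 strongest sets became 6. With the peak body required to contain a start, the values were 7 members (20% against 14.6%), 14 other genes, a median signal of 114, a median position of -62 bp and 5 members in all 3 strongest sets. With the 2470 strongest optimal peaks they were 7 members (20% against 13.4%), 12 other genes, 317 (all genes 290.3) and -176 bp (all genes -144 bp). With peaks shared with another gene start left out they were 5 members (14.3% against 8.53%), 7 other genes, 112 and -62 bp.

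Peaks of the optimal list were also required to overlap the strongest sets of only 2 replicates at a time. The members were then 10 to 12: Orc1 was lost without replicate 1, and Orc1, Rif1 and geminin without replicate 2 or 3. The shares were 34.3%, 28.6% and 28.6% without replicates 1, 2 and 3, against 18.95%, 18.96% and 18.8% of all genes. The median signal ranged from 179.9 to 251 and the median position from -146.5 to -110.0 bp. For all genes they ranged from 223 to 224 and from -140.5 to -140 bp. The order of members and all genes turned without replicate 2 or 3 and with the 2470 strongest peaks, for signal and position alike. Whole relaxed lists in place of the strongest sets gave 23 members in all 3 replicates. DRE matches, in 9 of 35 promoters (25.7% against 9.23% of all), were at 0 of 12 summits (against 7.91% of sites). The 6-letter core (ATCGAT) was in 13 of 35 (37.1% against 23.05%), and at the start nearest the peak, an alternative added after the data were seen, DRE was in 8 (22.9% against 9.11%). Over 100 pairs of a step and a setting the count equalled the main one in 70, was lower in 29 and higher in 1. The 5 members placed in the clamp and clamp loader step stayed at 0 in each. Except for the 1000 bp window and the peak body, the settings only take peaks, starts or assignments away and could not raise a count. That 1 count rose and that the clamp and clamp loader stayed at 0 therefore does not show stability. The cause of these shifts was not tested beyond what each setting leaves out. No paired analysis was possible because the study has 1 group.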

Other observations

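By chromosome arm the members with an optimal promoter peak were unevenly placed. On 2R 7 of 11 members had one (Orc1, lat, dup, geminin, dpa, RnrS and Rif1), against 20.4% of all protein-coding genes of that arm. On 2L 0 of 8 members had one, against 22.7% of the genes there: Orc5, Mcm10, Psf2, RfC3, RfC38, RPA2, RnrL and Top2. The counts were 1 of 4 on 3L, 3 of 6 on 3R and 2 of 6 on X, and the shares of all genes on these arms were 23.8%, 24.6% and 20.4%. The arms were compared after the values had been seen, with no test.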
